A study of Rattus norvegicus with 2 samples.

Results

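The miR-10, miR-99/100 and miR-125 families are related groups of small regulatory RNAs of about the same length, and 9 of their mature forms were followed here on high-density lipoprotein (HDL), the particle that carries cholesterol in plasma. The mature forms were taken by name from a table of 406 rat miRNAs, and all 9 were listed. Of these, 6 had at least 1 read and 3 had none. Fold changes were computed for miRNAs that reached 5 reads on cf-nHDL or on INS-1-nHDL, as defined below, which 5 of the 9 did. In the whole table, 120 miRNAs had at least 1 read after rounding and 81 were kept.

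The study used INS-1 832/13, a clone of a rat insulinoma line that serves as a model of pancreatic beta cells, and native HDL (nHDL) from human plasma. By the methods, which also give a range of times for such export assays, INS-1-nHDL was nHDL kept for 24 h at 1 mg/mL with these cells in serum-free medium at 3 mM glucose, and cf-nHDL was the same kind of nHDL kept for 24 h in medium without cells. Each was recovered by immunoprecipitation of apolipoprotein A-I and sequenced as 1 small RNA library made from a pool of 3 samples. With 1 library per group, no difference has a replicate check and no p-value was computed. Each interval covers the counting error of these 2 libraries only, and reads amplified by PCR are not independent molecules.

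A miRNA is cut from a hairpin precursor, and either the 5p or the 3p arm can be loaded onto an Argonaute protein, where bases 2 to 8 (the seed) pair with target messages. The miR-10 genes lie among the Hox genes that pattern the body axis. The miR-99/100 and miR-125 genes lie in clusters with let-7, a family known for restraining proliferation, and both miR-10 and miR-125 are common in blood and vascular cells. For most of these hairpins the 5p arm is the one usually found in cells.

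The mature sequences below are those of the deposited table, 5′ to 3′ and in DNA letters, with the seed in capitals. They are shown because the families are defined by their seeds, and because reads of forms that differ by 1 base are hard to tell apart.
miR-10a-5p: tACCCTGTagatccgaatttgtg
miR-10b-5p: cCCTGTAGaaccgaatttgtgt
miR-99a-5p: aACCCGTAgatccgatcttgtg
miR-99b-5p: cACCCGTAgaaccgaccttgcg
miR-100-5p: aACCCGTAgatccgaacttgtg
miR-125a-5p: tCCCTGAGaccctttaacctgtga
miR-125b-5p: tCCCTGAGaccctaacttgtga
miR-125b-1-3p: aCGGGTTAggctcttgggagct
miR-125b-2-3p: aCAAGTCAggctcttgggacct

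For 8 of the 9, RefSeq holds the same sequence. The miR-99/100 forms shared 1 seed with each other and with no other listed miRNA. miR-125a-5p and miR-125b-5p shared theirs with each other and with miR-351-5p, and the 3p arms of the miR-125b genes shared their seeds with no listed miRNA. miR-10a-5p and miR-10b-5p differed by 1 base over the 21 bases they share, T12A (position counted from the 5′ end of miR-10a-5p), and miR-100-5p and miR-99a-5p by 1 base of 22, A16T (counted from the 5′ end of miR-100-5p). The remaining forms had no listed miRNA within 1 difference. The 3p arms of the miR-125b genes differed by 4 bases of 22, and the 5p arms of miR-125a and miR-125b by 7 of 22. All these comparisons were made without gaps. miR-125a-5p has 24 bases and miR-125b-5p has 22, and with a gap allowed this pair would differ at fewer positions. The alignment allowed 1 mismatch, so a read of miR-10a-5p can match miR-10b-5p, and a read of miR-100-5p can match miR-99a-5p. The deposited reads have decimals at 11 miRNAs, as reads divided among several miRNAs would give, and 0 of the 9 members was among them. How other shared reads were assigned is not given in the sources used here.

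The seeds of miR-10a-5p and miR-10b-5p differ in this table although the hairpins are alike, because the annotated miR-10b-5p starts 2 bases later. The hairpins below are from RefSeq (GRCr8, plus strand, chr10:81779709-81779818 for Mir10a and chr3:80035859-80035967 for Mir10b), with the annotated 5p arm in capitals, and are shown so that both starts can be compared.
Mir10a: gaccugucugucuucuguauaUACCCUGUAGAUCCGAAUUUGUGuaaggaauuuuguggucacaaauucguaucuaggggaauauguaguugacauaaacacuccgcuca
Mir10b: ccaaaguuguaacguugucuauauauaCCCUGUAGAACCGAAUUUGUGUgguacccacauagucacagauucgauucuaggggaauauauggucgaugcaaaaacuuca

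The 2 bases before the annotated miR-10b-5p equal the first 2 bases of miR-10a-5p, so that a form started there would carry the miR-10a-5p seed. The table gives reads per annotated miRNA and not per start position, so where the miR-10b-5p reads began was not analysed here.

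The cf-nHDL library held 6585 miRNA reads and the INS-1-nHDL library 18008. A miRNA without reads was taken to hold at most 0.0456% of the first and 0.0167% of the second, the shares that 3 reads would make. The Wilson 95% intervals for 0 reads reach higher, to 0.0583% and 0.0213%. miR-375-3p, the most abundant miRNA of beta cells, took 3.51% of the reads on cf-nHDL against 62.3% on INS-1-nHDL. Without it, the libraries held 6354 and 6789 reads. Of the beta cell list, 4 miRNAs were in the table, and besides miR-375-3p, miR-182 had 13 and 152 reads, miR-183-5p had 0 and 7, and miR-96-5p had none. Counts were divided by DESeq2 size factors, 0.71 and 1.41, and fold changes are normalized INS-1-nHDL counts over normalized cf-nHDL counts. Their exact 95% intervals (Clopper-Pearson) hold the total of both counts fixed. In bulk libraries of this kind, fewer copies on the particles and a larger share of other miRNAs cannot be told apart.

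The 9 members together had 922 reads on cf-nHDL against 325 on INS-1-nHDL. Their share of the miRNA reads was 14.0% in the first library (13.2 to 14.9%, Wilson 95% interval) and 1.80% in the second (1.62 to 2.01%). The summed fold change was 0.178 (0.156 to 0.202). Part of the fall in share goes with the rise of miR-375-3p, and among the reads other than miR-375-3p the members held 14.5% on cf-nHDL (13.7 to 15.4%) against 4.79% on INS-1-nHDL (4.30 to 5.32%), a share 3.03 times lower. Among the reads other than miR-375-3p, the odds of a read being a member's were 0.296 times as high on INS-1-nHDL (exact 95% interval 0.259 to 0.338), a value that does not depend on how the libraries are scaled. The libraries therefore differed in these families by more than counting error whether or not miR-375-3p was counted.

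A few forms carried the sum. miR-10a-5p and miR-125b-2-3p together gave 95.4% of the members' reads on cf-nHDL against 97.8% on INS-1-nHDL, and the other 7 members had 42 and 7 reads. By family, the miR-10 forms had 648 and 193 reads, the miR-99/100 forms 7 and 0, the 5p arms of miR-125 had 25 and 1, and the 3p arms of miR-125b had 242 and 131. Each family had fewer reads on INS-1-nHDL, although that library was 2.73 times as deep.

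**Figure D1:**
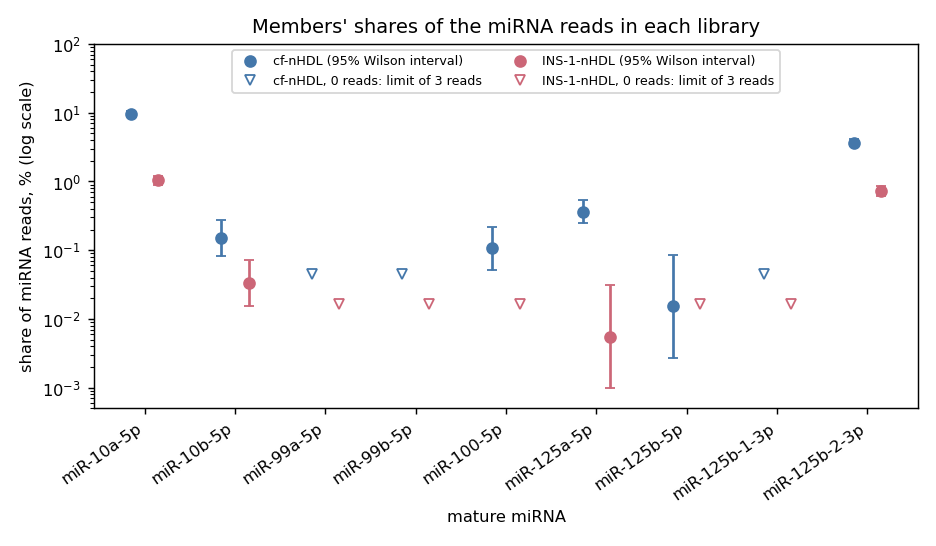
Share of all miRNA reads (%, log scale) of each of the 9 mature forms in the cf-nHDL library and the INS-1-nHDL library, with Wilson 95% intervals; open triangles mark 0 reads at the limit of 3 reads. miR-10a-5p and miR-125b-2-3p stand above the others in both libraries, at 9.69% and 3.68% on cf-nHDL and at 1.04% and 0.727% on INS-1-nHDL.

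For 6 of the 6 members with reads, the count was the lower one on INS-1-nHDL, the 5 kept members included, and so it was for 35.8% of all kept miRNAs. Of the 5 kept, 5 had a fold change below 1/1.5 and 0 were above 1.5, while among all 81 kept miRNAs 39.5% were below 1/1.5 and 46.9% above 1.5, a library without reads being taken at 3 reads. The exact interval lay entirely below 1/1.5 for 4 of the 5 and for 29.6% of all kept miRNAs. On the same basis the median fold change was 0.216 over the 5 kept members and 1.17 over all 81, and with miR-100-5p taken at 0 reads the first was 0.148. miR-100-5p and miR-125a-5p passed the filter through their reads on cf-nHDL alone and so had to differ, and the counts over the 5 are given as a description only.

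**Figure D2:**
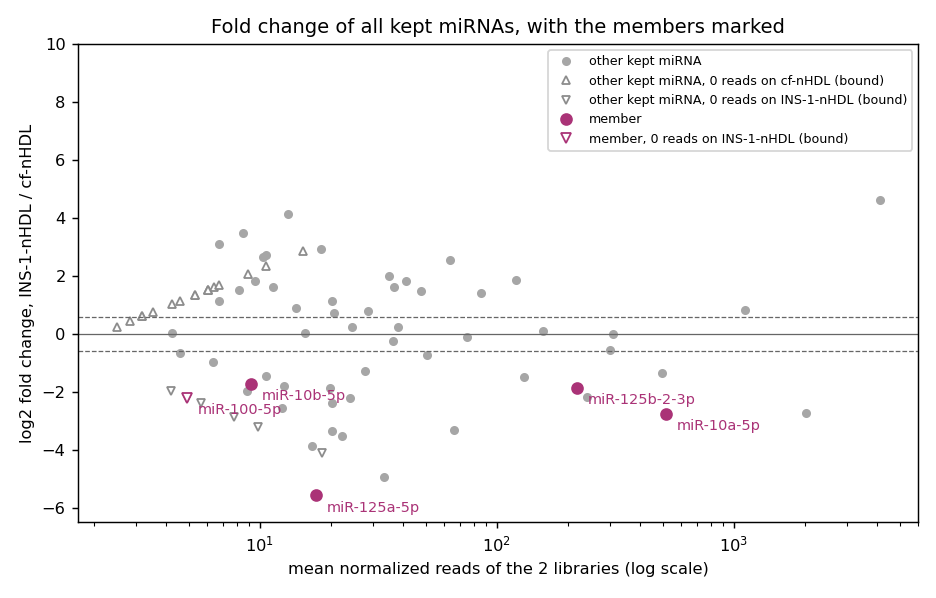
log2 fold change (INS-1-nHDL over cf-nHDL) of the 81 kept miRNAs against the mean normalized reads of the libraries (log scale), with the members in colour; dashed lines mark 1.5-fold in either direction, and triangles mark miRNAs with 0 reads in 1 library, placed at the bound that 3 reads give. The 5 members lie below the lower line, from -1.73 for miR-10b-5p to -5.57 for miR-125a-5p.

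By the reads as assigned, the miR-10 family was represented almost entirely by miR-10a-5p, a miRNA of hematopoietic and endothelial cells. Since miR-10b-5p differs from it by 1 base over the bases they share, the split between the paralogs is less certain than their sum. The deposited table places it at chr10:83968703-83968725 on the plus strand of the rat build that the study writes as rno5. In GRCr8, a later assembly whose coordinates differ, its gene lies between Hoxb5os and Hoxb4. miR-10a-5p had 638 reads on cf-nHDL, where it ranked 2 among all miRNAs, and 187 on INS-1-nHDL, where it ranked 9. As a share of miRNA reads this was 9.69% (9.0 to 10.4%) against 1.04% (0.90 to 1.20%). The share intervals of the libraries do not overlap, but part of this fall in share goes with the rise of miR-375-3p. Among the reads other than miR-375-3p, miR-10a-5p held 10.04% on cf-nHDL against 2.75% on INS-1-nHDL. Normalized counts were 898.7 and 132.8, which gives a fold change of 0.148 (0.125 to 0.174), or -2.76 on the log2 scale.

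miR-10b-5p, the paralog best known for its part in cell migration, lies at chr3:68113689-68113710 on the plus strand (rno5), and in GRCr8 its gene overlaps Hoxd4. It had 10 reads on cf-nHDL against 6 on INS-1-nHDL. The fold change was 0.302, with an interval of 0.0903 to 0.918 that is close to 1 at its upper end, and with the libraries scaled by reads other than miR-375-3p it was 0.562 with an interval of 0.168 to 1.71 that holds 1. As a share of the family's reads, miR-10b-5p was 1.54% (exact 95% interval 0.742 to 2.82%) of 648 on cf-nHDL against 3.11% (1.15 to 6.64%) of 193 on INS-1-nHDL. The odds ratio of miR-10b-5p to miR-10a-5p between the libraries was 2.05 (0.603 to 6.31), so a change in the mix of the paralogs was not detectable at this depth. Summed over both paralogs, the fold change was 0.150 (0.127 to 0.177). The 3p arms miR-10a-3p and miR-10b-3p had no reads in either library.

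The miR-99/100 family was at the edge of detection. miR-100-5p, a form often linked to control of mTOR signaling, had 7 reads on cf-nHDL (0.106% of miRNA reads, 0.0515 to 0.219%) against 0 on INS-1-nHDL. With 3 reads taken for INS-1-nHDL and DESeq2 size factors, it was at least 4.63-fold lower there. This bound leaves out the counting error of the 7 reads, and the upper end of the exact interval of the fold change was 0.350. As a fold change the bound was 0.216, against 0.401 when scaled by reads other than miR-375-3p and 0.429 in reads as counted. miR-99a-5p and miR-99b-5p had no reads in either library. Since miR-99a-5p differs from miR-100-5p by 1 base, the 7 reads are less certain for miR-100-5p alone than for the pair.

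The 5p arms of the miR-125 family had few reads in either library, and as miR-125a-5p was kept only through its reads on cf-nHDL, its values are a description. miR-125a-5p, a miRNA active in blood stem cells and macrophages, had 24 reads on cf-nHDL, where it ranked 25, and 1 on INS-1-nHDL. Its share was 0.364% (0.245 to 0.542%) on cf-nHDL against 0.00555% (0.000980 to 0.0315%) on INS-1-nHDL. The fold change was 0.0210, with a wide interval of 0.000511 to 0.129 because it rests on 1 read, and its upper end lies near the estimate for miR-10a-5p. miR-125b-5p, the form that is usually abundant in cells, had 1 read on cf-nHDL against 0 on INS-1-nHDL, too few for a fold change.

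The 3p arm miR-125b-2-3p stood in contrast. It is the opposite arm of the chromosome 11 gene of miR-125b, a strand that is usually taken to be degraded, and lies at chr11:19752335-19752356 on the plus strand (rno5). It had 242 reads on cf-nHDL, where it ranked 7, and 131 on INS-1-nHDL, where it ranked 12. Its share was 3.68% (3.25 to 4.16%) on cf-nHDL against 0.727% (0.613 to 0.863%) on INS-1-nHDL. The fold change was 0.273 (0.219 to 0.339), or -1.87 on the log2 scale. Both libraries therefore held it among their leading miRNAs while the 5p arm of the same hairpin was nearly absent.

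Against miR-125b-5p, which is counted from the genes on both chromosome 8 and chromosome 11, miR-125b-2-3p was 99.6% of 243 reads on cf-nHDL (exact 95% interval 97.7 to 99.99%) against 100% of 131 reads on INS-1-nHDL (97.2 to 100%). Whether the arms changed by different factors between the libraries was not detectable, since the interval of their odds ratio started at 0.0138 and had no upper end. miR-125b-1-3p, the 3p arm of the chromosome 8 gene at chr8:44272900-44272921 (plus strand, rno5), had 0 reads in both libraries. Its sequence differs from miR-125b-2-3p at A3G, A4G, C7T and C20G (positions from the 5′ end of miR-125b-2-3p), more than the 1 mismatch the alignment allowed. In the 3 other hairpins with reads for which both arms were in the table, only the 5p arm had reads: miR-10a-5p had 638 and 187 reads against 0 and 0 of miR-10a-3p, miR-10b-5p had 10 and 6 against 0 and 0 of miR-10b-3p, and miR-125a-5p had 24 and 1 against 0 and 0 of miR-125a-3p. Of the 6 opposite arms listed for comparison, 5 were in the table and 0 had reads, miR-99a-3p and miR-99b-3p included; miR-100-3p had no row, so the arms of miR-100 were not compared. Whether reads of miR-125b-2-3p began and ended at the annotated positions was not analysed here, since the table holds no reads. In GRCr8 the Mir125b2 gene overlaps another annotated miRNA gene, Mir3588, which has no row in the table.

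The order of the fold changes could be compared without any scaling, as the conditional odds ratio of each pair of members, an estimate of the ratio of their fold changes. Of the 4 members with reads in both libraries, miR-125a-5p had the lowest fold change, but it was kept only through its reads on cf-nHDL, and no difference from the other members is drawn from it. The other 3 were, in rising order, miR-10a-5p, miR-125b-2-3p and miR-10b-5p. miR-125b-2-3p had a fold change 1.85 times that of miR-10a-5p (exact 95% interval 1.40 to 2.43), so the leading members differed by more than counting error. Of the reads of these 2 members, miR-125b-2-3p took 27.5% on cf-nHDL (24.6 to 30.6%) against 41.2% on INS-1-nHDL (35.7 to 46.8%). miR-10b-5p could not be told from miR-125b-2-3p (1.11, 0.323 to 3.45) or from miR-10a-5p (2.05, 0.603 to 6.31).

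**Figure D3:**
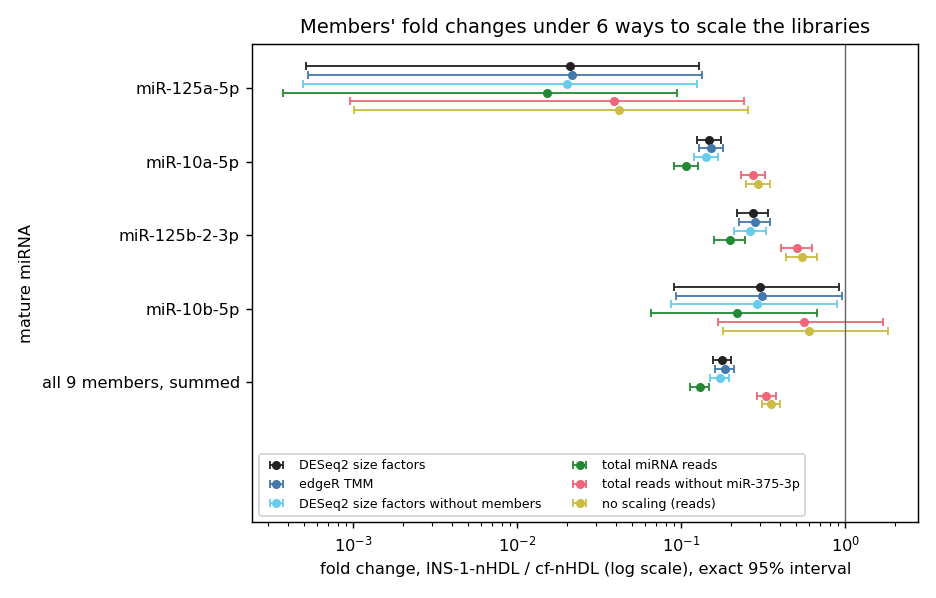
Fold change (INS-1-nHDL over cf-nHDL, log scale) of 4 members and of the sum of all 9, with exact 95% intervals, under DESeq2 size factors and 5 other ways to scale the libraries, the last being reads as counted. Each scaling moves all members by 1 factor; the intervals of miR-10a-5p, miR-125b-2-3p, miR-125a-5p and the sum stay below 1, and those of miR-10b-5p reach past 1 under the last 2 scalings.

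The size of each fold change depended on the scaling and its direction did not. Scaled by total miRNA reads, the fold change of miR-10a-5p was 0.107 and that of miR-125b-2-3p 0.198. Scaled by miRNA reads other than miR-375-3p, they were 0.274 (0.232 to 0.323) and 0.507 (0.406 to 0.629). In reads as counted, with no allowance for the deeper INS-1-nHDL library, the ratios were 0.293 (0.248 to 0.346) and 0.541 (0.434 to 0.672). How many reads were sequenced in all, including those on other RNAs, was not used here.

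The miR-99/100 and miR-125 genes lie in 3 clusters, each with a let-7 gene, and the members of a cluster did not have like levels. The cluster on chromosome 1 spans 643 bases from miR-99b-5p to miR-125a-5p (chr1:60623880-60624522, rno5), and in GRCr8 its miR-99b and miR-125a genes overlap Spaca6. Its miR-99b-5p had no reads, let-7e-5p had 6 on cf-nHDL against 0 on INS-1-nHDL, and miR-125a-5p had 24 and 1. The cluster on chromosome 8 spans 50760 bases, and in GRCr8 its miR-100 and miR-125b-1 genes overlap Mir100hgl and Lnc215. There miR-100-5p had 7 and 0 reads and let-7a-5p, which is also encoded on chromosome 17, had 14 and 8 after rounding, a fold change of 0.288 (0.105 to 0.736). The cluster on chromosome 11 spans 44922 bases, and in GRCr8 its miR-99a and miR-125b-2 genes overlap LOC103693508. Its miR-99a-5p had no reads and its miR-125b-2-3p had 242 and 131.

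let-7c-5p, the let-7 of the chromosome 11 cluster, had 11 and 36 reads after rounding, and its fold change of 1.65 had an interval of 0.821 to 3.59 that holds 1. It is also encoded on chromosome 7, and its deposited reads have decimals, so its level does not belong to this cluster alone. The conditional odds ratio of let-7c-5p to miR-125b-2-3p between the libraries was 6.02 (2.88 to 13.6). In all, 4 of the 6 listed let-7 forms were in the table, 3 had reads, and let-7e-3p had none.

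**Figure D4:**
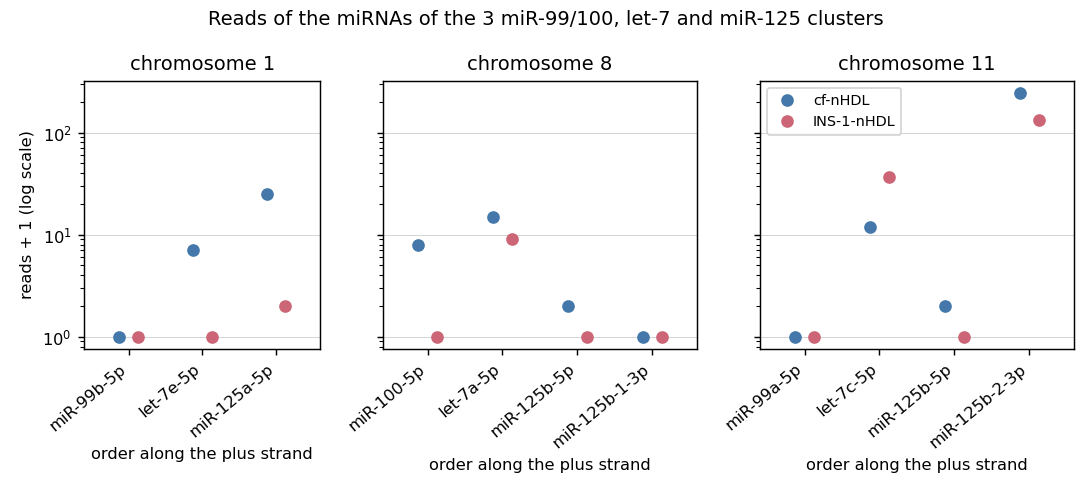
Reads plus 1 (log scale) of each mature miRNA of the 3 clusters on chromosomes 1, 8 and 11, in their order along the plus strand, on cf-nHDL and INS-1-nHDL. miR-125b-5p, let-7a-5p and let-7c-5p each have 2 gene copies, and miR-125b-5p is drawn in both of its clusters; miR-125b-2-3p, with 242 and 131 reads, stands above every other form, and let-7c-5p alone has more reads on INS-1-nHDL.

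The members were set beside the miRNAs of other sources. A list of blood cell miRNAs, of which 7 were in the table and 5 had reads, had 2544 reads on cf-nHDL against 756 on INS-1-nHDL, or 38.6% and 4.2% of the miRNA reads, and a summed fold change of 0.150 (0.138 to 0.163). Nearly all of these reads were of miR-16-5p, which is abundant in red blood cells and most other cells; miR-451-5p, the red cell miRNA, had 26 and 5 reads, miR-223-3p, the myeloid miRNA, had 7 and 0, miR-142-5p had 15 and 5, miR-150-5p had 10 and 5, and miR-142-3p and miR-144-3p had none. The summed fold change of the members was 1.19 times that of this list (1.02 to 1.38). Of the list for other tissues, miR-133a-3p of muscle had 11 and 8 reads and miR-122-5p of liver had none. What part any cell type had in the members' levels was not tested. By design, cf-nHDL was human nHDL kept without rat cells. INS-1-nHDL was human nHDL kept with rat cells, so its counts do not tell which species a read came from.

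Among the 24 other kept miRNAs with at least 50 reads and reads in both libraries, the 3 whose log2 fold change was nearest to that of miR-10a-5p were miR-16-5p (2486 and 741 reads, fold change 0.150), miR-141-3p (85 and 17 reads, 0.101) and miR-320-3p (280 and 122 reads, 0.220). miR-10a-5p and miR-16-5p differed by 0.02 on the log2 scale, and the ratio of their fold changes was 0.983 (0.815 to 1.2). The nearest to miR-125b-2-3p were miR-320-3p, miR-27a-3p (136 and 95 reads, 0.352) and miR-21-5p (508 and 396 reads, 0.393). The fold change of miR-125b-2-3p was 1.82 times that of miR-16-5p (1.43 to 2.29). Likeness over 2 libraries is a description of these libraries.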

How the data were processed

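Small RNA was sequenced from 2 pooled libraries, cf-nHDL and INS-1-nHDL, (TruSeq small RNA kit per the methods, a TruSeq RNA kit per the labels). The authors trimmed adapters with Cutadapt, aligned reads to the rat genome (written rno5) with Bowtie 1.1.2, allowing 1 mismatch, and deposited expected counts per mature miRNA without normalization. A second deposited table holds counts rounded to whole reads for 81 miRNAs beside a DESeq2 comparison (base means, fold changes, p-values), which was not used; all 81 equal the rounded counts used here. Expected counts were rounded, and a miRNA was kept if either library held 5 or more reads of it. Size factors came from DESeq2 1.42.0 (56 miRNAs with reads in both libraries) in R 4.3.3, and TMM factors from edgeR 4.0.16. Intervals were computed with scipy 1.17.1: Clopper-Pearson for fold changes, arm shares and paralog shares, Wilson for shares of all reads, and conditional exact for odds ratios. A library at 0 reads was taken at 3. The text names all 9 members, opposite arms, let-7 forms and marker miRNAs from the lists, and the 3 kept miRNAs nearest in log2 fold change to miR-10a-5p and to miR-125b-2-3p among those with 50 or more reads over both libraries. The members and lists were chosen with earlier results of these data known. The scripts were tested on simulated data. Other scalings, filters, a pseudocount and summed paralogs were tried as alternatives. Gene neighbours are from GRCr8, by name only.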

Additional observations from a re-analysis of the deposited data

How the results depend on the processing

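No paired analysis was possible because each group has 1 library, which also leaves none to omit. The summed fold change of 0.178 was 0.129 when scaled by total miRNA reads and 0.330 when that total left out miR-375-3p, and, as alternatives chosen after seeing the data, 0.352 with no scaling and 0.245 without miR-10a-5p. These scalings move every log2 fold change by one amount, -0.46, 0.89 and 0.99 in that order, while TMM moved it by 0.04 and size factors computed without the members by -0.06. The members' summed share on INS-1-nHDL, 1.80%, was 4.79% of the reads without miR-375-3p, and without miR-10a-5p the shares were 4.31% (cf-nHDL) and 0.766% (INS-1-nHDL). Members below 1/1.5-fold numbered 5, and 3 when either library had to hold 20 or more reads, a filter that removes miR-10b-5p and miR-100-5p. Of 78 alternative values in all, 62 stayed within the interval, or within 1.5 times for counts, 16 moved and 0 reversed. The interval of miR-10b-5p also reached past 1 with size factors from all miRNAs with reads (0.340, 0.102 to 1.03). A pseudocount of 1 raised the fold change of miR-125a-5p from 0.0210 to 0.0491, within its interval. Depth limits the low forms: 0 reads on INS-1-nHDL, taken at the limit of 3 reads, make 0.0167% of its miRNA reads, and the Wilson interval reaches 0.0213%.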
